A study of Sus scrofa with 6 samples.

Results

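Coenzyme Q (ubiquinone) is the lipid that carries electrons from the dehydrogenases of the inner mitochondrial membrane to complex III, and its reduced form is also a membrane antioxidant. Cardiac muscle, which depends on oxidative phosphorylation, is rich in it. Cells make it in mitochondria by joining a long isoprenoid tail to an aromatic ring and then hydroxylating and methylating that ring in a multi-enzyme complex on the inner membrane. The genes analysed here encode the enzymes and the lipid-binding protein of this synthesis.

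The list holds 9 genes, COQ2, COQ3, COQ4, COQ5, COQ6, COQ7, COQ9, PDSS1 and PDSS2, and its members are all probe sets of the Affymetrix Porcine Genome Array whose single gene symbol is one of them. The rule found 9 probe sets among the 23999 of the array that are not controls. They represent 4 of the 6765 genes that the array annotation names under a single symbol, with 1 probe set for PDSS1, 2 for COQ5, 3 for COQ6 and 3 for COQ9. COQ2, COQ4, COQ7 and PDSS2 have no probe set under a single symbol and were not analysed here. COQ3 has a probe set whose annotation lists the symbol 2 times under different gene IDs, so it is no member, and its values are given apart. The list was chosen by the COQ5 signals, because both COQ5 probe sets read lower in Dox arrays. The COQ5 difference is therefore a description without a test, whereas the probe sets of the other genes entered through their role in the pathway and are given with the test over all probe sets. The question was whether COQ5 alone or the pathway read lower.

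The arrays measured total RNA from the left ventricular (LV) free wall of Large White piglets at 28 days of age. One group was 3 Dox-injected piglets, which had received 1 intravenous dose of 2.0 mg/kg doxorubicin (Dox), an anthracycline anticancer drug with cardiac toxicity, at 8 days of age, 3 weeks before the tissue was taken. The controls were 3 PBS-injected piglets of the same age. Each animal had its own array, no genetic change was involved, and the study's methods describe a dose range and a slightly different schedule from the submitters' design text, which is followed here. The values are MAS5 signals, a linear intensity per probe set that the authors scaled to a common trimmed mean on every array, and signals of different probe sets cannot be compared as levels.

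Dox replicate 1 and Dox replicate 3 stood apart from the other arrays. The ratio of the 3′ to the 5′ control probe set rises as RNA is degraded or incompletely copied. For actin it was 6.04, 3.96 and 2.20 in Dox replicates 1 to 3, against 1.96 to 2.63 on the PBS arrays. For GAPDH it was 2.93, 1.33 and 1.24, against 1.18 to 1.68. For the elongation factor control it was 11.6 in Dox replicate 1, against 4.24 to 4.86 on the other arrays. The part of these ratios in the order of the Dox arrays for the genes below was not tested. Log2 signals of Dox replicate 3 had the lowest correlations with the other arrays, between 0.897 and 0.916. Cardiomyocyte markers were all detected (12 of 14 genes have a probe set), with summed signals of 60806 to 79155 in Dox-injected and 50412 to 61262 in PBS-injected piglets. Fibroblast markers had summed signals of 1137 to 2757 in Dox-injected and 2883 to 4673 in PBS-injected piglets, and endothelial markers 1260 to 1366 and 1434 to 2116 in the same order. No marker of these lists was at 0. In a tissue piece, fewer cells of a type and less RNA per cell cannot be told apart.

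COQ5 is the methyltransferase that adds a carbon-bound methyl group to the ring. At its brighter probe set the signal was 394.9, 196.4 and 154.4 in Dox replicates 1 to 3, against 480, 498.4 and 481.1 in PBS replicates 1 to 3. At its dimmer probe set it was 167.7, 122.8 and 72.8 in Dox replicates 1 to 3, against 299.1, 340.9 and 308.4 in PBS replicates 1 to 3. The groups did not overlap at either probe set, and in both the order was the same among Dox-injected piglets, with replicate 1 nearest to the controls and replicate 3 farthest. The means were 249 ± 128 and 487 ± 10.3 for the brighter probe set and 121 ± 47.5 and 316 ± 21.9 for the dimmer (Dox-injected and PBS-injected, SD, n = 3 each).

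The ratio of geometric means, Dox over PBS, was 0.470 at the brighter COQ5 probe set and 0.363 at the dimmer, log2 differences of -1.09 and -1.46. Relative to the PBS geometric mean, the brighter probe set read 81.2%, 40.4% and 31.7% in Dox replicates 1 to 3, and the dimmer 53.1%, 38.9% and 23.1%. The probe sets differed most in Dox replicate 1. The spread of COQ5 was larger in the Dox-injected piglets, with a log2 SD of 0.70 and 0.61 over the Dox-injected piglets and 0.03 and 0.10 over the PBS-injected piglets. Leaving out Dox replicate 1 gave log2 differences of -1.48 and -1.74, and leaving out Dox replicate 3 gave -0.80 and -1.14.

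**Figure D1:**
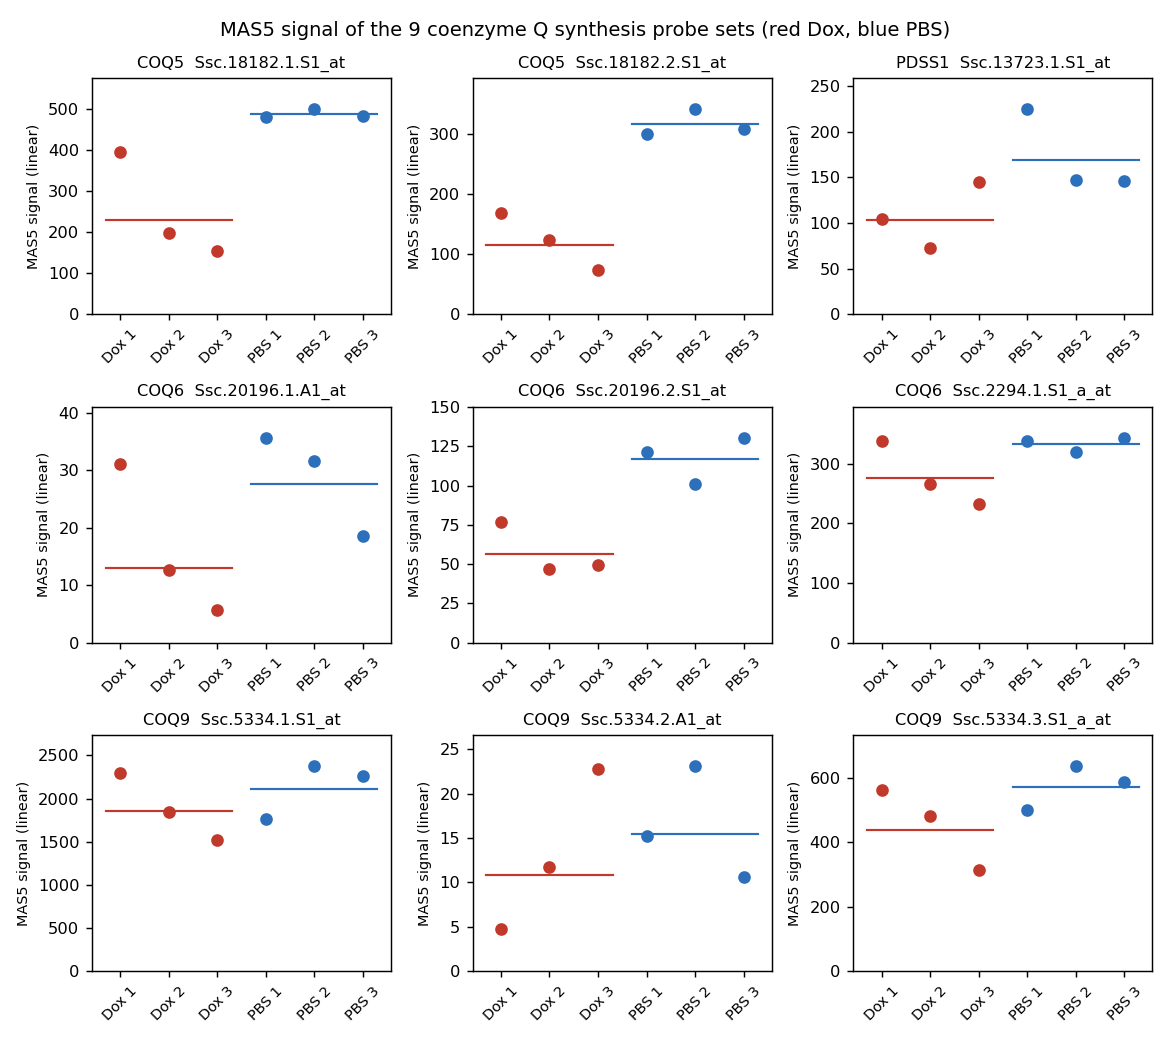
MAS5 signal (linear axis from 0, own scale in each panel) of the 9 member probe sets on each array, with Dox-injected piglets in red on the left and PBS-injected piglets in blue on the right, and lines at the geometric mean of 3 arrays. Both COQ5 panels, 1 COQ6 panel and the PDSS1 panel show groups that do not overlap, for PDSS1 by 145.3 against 145.6.

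Upstream of the ring modifications, PDSS1 encodes a subunit of the prenyl diphosphate synthase that builds the isoprenoid tail. Its signal was 104.2, 72.4 and 145.3 in Dox replicates 1 to 3, against 224.8, 146.9 and 145.6 in PBS replicates 1 to 3. All Dox-injected piglets were below all PBS-injected piglets, but Dox replicate 3 and PBS replicate 3 read almost the same. The mean was 107 ± 36.5 in Dox-injected and 172 ± 45.4 in PBS-injected piglets (SD, n = 3 each), and the log2 difference of -0.71 (standard error, SE, 0.31, 95% interval from -1.42 to -0.01) had an adjusted p of 0.523 from limma over all probe sets. It was -0.46 without Dox replicate 2 and -0.50 without PBS replicate 1. The order of the Dox-injected piglets was not that of COQ5, since replicate 3, the lowest for COQ5, was the highest for PDSS1.

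COQ6 encodes the flavin-dependent monooxygenase that hydroxylates the ring, and its 3 probe sets gave unequal differences. At the probe set of middle brightness the signal was 77.1, 46.9 and 49.4 in Dox replicates 1 to 3, against 121.5, 101 and 130.6 in PBS replicates 1 to 3. The groups did not overlap, and the log2 difference was -1.06 (SE 0.27, 95% interval from -1.67 to -0.44, limma adjusted p = 0.521). In an exact two-sided permutation test its p was 0.1, the smallest that 3 animals against 3 allow. Leaving out single arrays moved the log2 difference between -1.28 and -0.92.

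At the dimmest COQ6 probe set the signal was 31.1, 12.7 and 5.6 in Dox replicates 1 to 3, against 35.7, 31.7 and 18.5 in PBS replicates 1 to 3. The groups overlapped, because Dox replicate 1 lay within the range of the controls. The log2 difference was -1.08 (SE 0.61, 95% interval from -2.47 to 0.30, limma adjusted p = 0.578). Leaving out Dox replicate 1 gave -1.71, and leaving out Dox replicate 3 gave -0.47.

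The brightest COQ6 probe set had a signal of 337.2, 265.2 and 232.9 in Dox replicates 1 to 3, against 337, 319.6 and 343.4 in PBS replicates 1 to 3. Here Dox replicates 2 and 3 were below the controls and Dox replicate 1 was not. The log2 difference was -0.28 (SE 0.20, 95% interval from -0.73 to 0.18, limma adjusted p = 0.643), that is, 82.6% of the PBS geometric mean, whereas the 2 other COQ6 probe sets read 47.3% and 48.1%. At the brightest probe set, leaving out Dox replicate 1 gave -0.42, leaving out Dox replicate 3 gave -0.16, and shifting every array to the same median log2 signal gave -0.05. The probe sets of COQ6 disagreed on the size of the difference but not on its sign, and the difference between them was not tested.

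COQ9 encodes a lipid-binding protein that the ring hydroxylase COQ7 needs. Its brightest probe set had a signal of 2298.2, 1845.5 and 1520.3 in Dox replicates 1 to 3, against 1765.3, 2376.7 and 2261.2 in PBS replicates 1 to 3. The groups overlapped and the log2 difference was -0.19 (SE 0.20, 95% interval from -0.64 to 0.27, limma adjusted p = 0.759). With single arrays left out it lay between -0.34 (without Dox replicate 1) and -0.040 (without Dox replicate 3). It was -0.34 after quantile and -0.33 after cyclic loess normalization, and 0.045 when every array was shifted to the same median log2 signal.

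The COQ9 probe set of middle brightness had a signal of 560.9, 479.9 and 314.8 in Dox replicates 1 to 3, against 498.3, 636 and 586.9 in PBS replicates 1 to 3. The log2 difference was -0.38 (SE 0.24, 95% interval from -0.93 to 0.17, limma adjusted p = 0.613), with -0.55 when Dox replicate 1 was left out and -0.14 when Dox replicate 3 was. Both bright COQ9 probe sets were highest in replicate 1 and lowest in replicate 3 among the Dox-injected piglets, the order seen for COQ5. The third was dim, with signals of 4.7, 11.7 and 22.8 in Dox replicates 1 to 3, against 15.2, 23.1 and 10.6 in PBS replicates 1 to 3. In Dox replicate 1 this signal was within the range of the Tag probe sets, controls with synthetic sequences and no pig target, whose highest signal was 2.5 to 6.3 on the 6 arrays. The log2 difference of -0.52 (SE 0.60, limma adjusted p = 0.776) turned to 0.076 without Dox replicate 1.

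COQ3 encodes the O-methyltransferase of the pathway, which like COQ5 takes its methyl groups from S-adenosylmethionine. The probe set that carries the COQ3 symbol under 2 gene IDs had a signal of 1438.2, 768.5 and 598.5 in Dox replicates 1 to 3, against 1385.9, 1420 and 1604.8 in PBS replicates 1 to 3. Dox replicates 2 and 3 were below the controls and Dox replicate 1 lay among them. The log2 difference was -0.75 (SE 0.30, 95% interval from -1.43 to -0.07, limma adjusted p = 0.521). Leaving out Dox replicate 1 gave -1.11 and leaving out Dox replicate 3 gave -0.48.

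**Figure D2:**
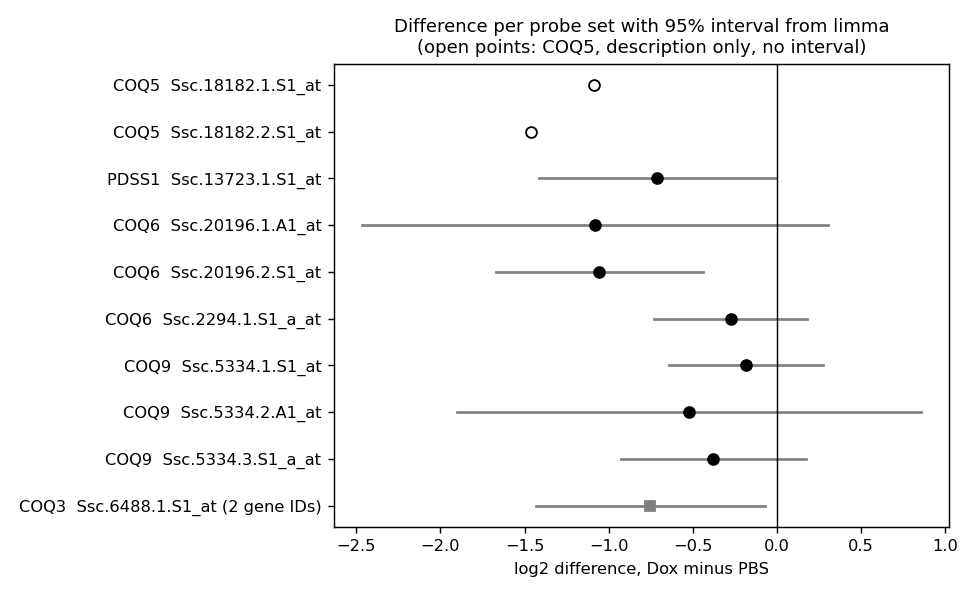
Log2 difference, Dox minus PBS, for each member probe set (circles) and for the COQ3 probe set that is no member (square), with 95% intervals from limma before adjustment. All 10 points lie below 0, from -1.46 at a COQ5 probe set to -0.19 at the brightest COQ9 probe set, and the COQ5 points are shown without an interval.

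Set side by side, all 7 probe sets of PDSS1, COQ6 and COQ9 had a log2 difference below 0, with a median of -0.52. That median is the value of the dim COQ9 probe set. It was -0.54 over the 6 probe sets above the median signal, and -0.28 with the brightest probe set of each gene. Over all probe sets of the array the difference was below 0 in 57.2%, with a median of -0.10, and over the 11999 with a mean log2 signal above the median of all it was below 0 in 60.7%. The 7 probe sets come from only 3 genes, and probe sets of a gene share its transcripts. Of the 7, 2 had groups that did not overlap with Dox lower, where 10.1% of all probe sets and 12.9% of the brighter ones did, and the same 2 were lower with an unadjusted p no greater than 0.05, where 5.92% of all did. That count was 1 of 7 without Dox replicate 2 or without any 1 of the PBS replicates, and 2 of 7 without Dox replicate 1 or 3, where between 2.5% and 10.7% of all probe sets were lower at that p. None of the 7 passed the threshold taken from the study's methods, a 2-fold difference or more with an adjusted p no greater than 0.05. That threshold called 0% of all probe sets with limma, and 2290 had an unadjusted p no greater than 0.05. The methods' t-test also called 0, with 1722 at an unadjusted p no greater than 0.05. Without Dox replicate 1, limma called 14 probe sets of the array, none of them among the 7.

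Scaling mattered for small differences. With each array shifted to a common median log2 signal, a setting added after the values were seen, the median difference over all probe sets moved to 0.13, and 6 of the 7 remained below 0. Among probe sets with an unadjusted p no greater than 0.05, 27.3% were then lower in Dox-injected piglets, against 62.1% without that shift. COQ5 read -0.86 and -1.23 under it, and the COQ6 probe set without overlap -0.82.

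Array by array, COQ5 lay below the median of the other members in the Dox-injected piglets. The mean of its 2 probe sets, centred on the PBS mean, was -0.61, -1.34 and -1.89 on the log2 scale in Dox replicates 1 to 3. The median of the other 7 probe sets, centred in the same way, was -0.03, -0.41 and -0.52 in Dox replicates 1 to 3. COQ5 minus this median was -0.58, -0.93 and -1.37 in Dox replicates 1 to 3, against -0.06, -0.08 and -0.06 in PBS replicates 1 to 3. With 1 probe set per gene, the brightest, the values were -0.62, -1.01 and -1.41, against -0.06, 0.13 and -0.07. Since the COQ5 contrast chose the list, this gap is a description. By probe set, 2 of COQ6 had log2 differences of -1.08 and -1.06, beside -1.09 and -1.46 for those of COQ5. Some members came close to COQ5 on single Dox arrays. As percent of the PBS geometric mean, PDSS1 read 61.7%, 42.9% and 86.1% in Dox replicates 1 to 3. The COQ6 probe set of middle brightness read 65.9%, 40.1% and 42.2%. COQ5 read 81.2%, 40.4% and 31.7% at its brighter probe set and 53.1%, 38.9% and 23.1% at its dimmer. The brightest COQ6 and both bright COQ9 probe sets read above COQ5 in all Dox replicates.

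**Figure D3:**
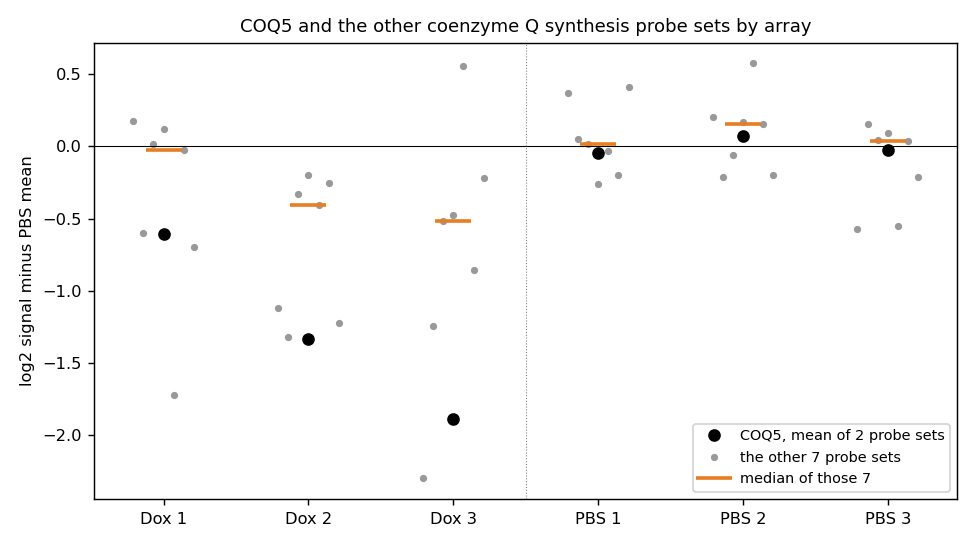
Log2 signal minus the mean of the PBS arrays, by array, for COQ5 (black, mean of 2 probe sets), the 7 probe sets of PDSS1, COQ6 and COQ9 (grey) and the median of those 7 (orange). COQ5 minus the orange bar is -0.58, -0.93 and -1.37 on the Dox arrays, and -0.06, -0.08 and -0.06 on the PBS arrays.

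Genes around the pathway were read from lists, at the brightest probe set of each gene and without those within the Tag range on 4 or more arrays. For counts below 0, the share was 57.2% over all probe sets and 60.7% over the brighter ones. Of the kinases, phosphatase, binding proteins and electron donors of coenzyme Q synthesis, 5 of 11 genes were measured and 4 had a difference below 0, with a median of -0.05. That median was -0.33 when each gene's probe sets were averaged, -0.23 without Dox replicate 1 or PBS replicate 1, 0.04 without Dox replicate 3 and 0.18 with arrays shifted to a common median. PPTC7, a mitochondrial phosphatase whose yeast counterpart Ptc7 acts on the hydroxylase Coq7, had a signal of 216.3, 220.3 and 150.5 in Dox replicates 1 to 3, against 355.8, 335.1 and 362.8 in PBS replicates 1 to 3. The groups were well separated, with a log2 difference of -0.86 (SE 0.21, limma adjusted p = 0.521) that ranged from -0.96 to -0.69 with 1 array left out. ADCK2, an ADCK-family kinase, had a log2 difference of -0.57 (SE 0.36, limma adjusted p = 0.612) and overlapping groups. It was -0.14 without Dox replicate 3, and the other ADCK2 probe set read -0.09. FDX1, a ferredoxin that donates electrons, had a signal of 782.9, 941.6 and 817.1 in Dox replicates 1 to 3, against 662.6, 759.4 and 734 in PBS replicates 1 to 3. Here Dox was higher without overlap, with a log2 difference of 0.24 (SE 0.16, limma adjusted p = 0.632), whereas the other FDX1 probe set read -0.24 with overlapping groups.

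The genes that supply the tail, the ring and the methyl groups were thinly covered. Of the 9 genes of the mevalonate route to isoprenoids 3 were measured, with a median of -0.53 that was -0.25 without PBS replicate 1 and -0.30 with arrays shifted to a common median. FDPS, which makes farnesyl diphosphate, had a log2 difference of -0.58 (SE 0.28, limma adjusted p = 0.543), and HMGCS1, an early enzyme of the route, -0.53 (SE 0.31, limma adjusted p = 0.591), and the groups of both overlapped. ACAT2, which makes acetoacetyl-CoA, had a log2 difference of -0.10 (SE 0.41, limma adjusted p = 0.944) whose sign turned after quantile (0.15) and cyclic loess (0.12) normalization and with arrays shifted to a common median (0.13). Of the 7 genes of ring and methyl supply 3 were measured above the Tag range and 2 were below 0, with a median of -0.25. It was 0.0011 when each gene's probe sets were averaged, -0.016 with arrays shifted to a common median and -0.45 without Dox replicate 1. AHCY removes S-adenosylhomocysteine, the by-product of the methylations, and had a signal of 190.3, 151.9 and 120.4 in Dox replicates 1 to 3, against 245, 193.1 and 223.9 in PBS replicates 1 to 3. Its groups did not overlap, at 190.3 against 193.1, and its log2 difference was -0.54 (SE 0.23, limma adjusted p = 0.523). The other, dimmer AHCY probe set read -0.25 with overlapping groups. MAT2B, a subunit of the enzyme that makes S-adenosylmethionine, had a log2 difference of -0.25 (SE 0.23, limma adjusted p = 0.716) with overlapping groups, and -0.035 without Dox replicate 3. Its dimmer probe sets read -0.29 and 0.54, the last within the Tag range on 3 arrays. MAT2A, another subunit of that enzyme, was the measured gene above 0. Its log2 difference was 0.18 (SE 0.31, limma adjusted p = 0.859) with overlapping groups, and its signal was highest in Dox replicate 3.

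No test compared the lists with each other. The list of enzymes that pass electrons to coenzyme Q, directly or through a partner, holds 19 genes, some of them subunits of the same enzyme. Of these genes 13 were measured above the Tag range, 8 of them below 0, with a median of -0.05. That median was -0.16 without Dox replicate 1, 0.04 without Dox replicate 2 and 0.18 with arrays shifted to a common median. The only gene of this list with groups apart was NDUFS7, a complex I subunit, with Dox higher. Its signal was 4112.3, 3836.1 and 4647.9 in Dox replicates 1 to 3, against 3010.4, 3742.2 and 3680.9 in PBS replicates 1 to 3. The log2 difference was 0.27 (SE 0.16, limma adjusted p = 0.583). SQOR, which oxidizes sulfide, had a signal of 162.4, 92.7 and 29.8 in Dox replicates 1 to 3, against 179.1, 340.8 and 140 in PBS replicates 1 to 3, a log2 difference of -1.42 (SE 0.59, limma adjusted p = 0.521) with overlapping groups that was -0.74 without Dox replicate 3. ETFA, a subunit of the electron transfer flavoprotein, and SDHD, a membrane anchor of complex II, had log2 differences of -0.37 (SE 0.20) and -0.39 (SE 0.22), and adjusted p of 0.569 and 0.577 from limma. Without Dox replicate 3 they were -0.25 for ETFA and -0.17 for SDHD, and with arrays shifted to a common median -0.14 and -0.16.

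Of complex III, which takes electrons from the reduced lipid, only UQCRB and UQCR10 were measured among 9 listed genes. UQCRB had a signal of 3543, 3283.5 and 3309.2 in Dox replicates 1 to 3, against 2821.4, 2959.7 and 2700.5 in PBS replicates 1 to 3, with groups apart and a log2 difference of 0.26 (SE 0.13, limma adjusted p = 0.562). That difference was 0.042 after quantile and 0.059 after cyclic loess normalization, and 0.49 with arrays shifted to a common median. UQCR10 had a log2 difference of -0.12 (SE 0.17, limma adjusted p = 0.823), which was 0.11 with arrays shifted to a common median.

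Of 14 genes that stand for mitochondrial content, 12 were measured, 5 of them below 0, with a median of 0.07. HSPD1, the mitochondrial chaperonin, was the gene of this list with the smallest p, at 1068.4, 924.4 and 756.1 in Dox replicates 1 to 3, against 1565.2, 1484 and 1372.1 in PBS replicates 1 to 3 (log2 difference -0.70, SE 0.18, limma adjusted p = 0.521). TOMM20, an import receptor of the outer membrane, was higher, at 830, 1159 and 1163.6 in Dox replicates 1 to 3, against 708.9, 821.5 and 650.3 in PBS replicates 1 to 3 (log2 difference 0.52, SE 0.20, limma adjusted p = 0.521). SLC25A4, the ADP/ATP carrier of the inner membrane, had a log2 difference of 0.36 (SE 0.16, limma adjusted p = 0.523) with Dox higher without overlap, which was 0.047 after quantile and 0.10 after cyclic loess normalization. Of these 12 genes, 5 had groups apart with Dox higher, where 6.19% of all probe sets and 7.78% of the brighter ones did, and 1 with Dox lower. The median of this list was -0.07 after quantile and -0.06 after cyclic loess normalization, and 0.30 with arrays shifted to a common median, so its sign depends on the scaling.

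**Figure D4:**
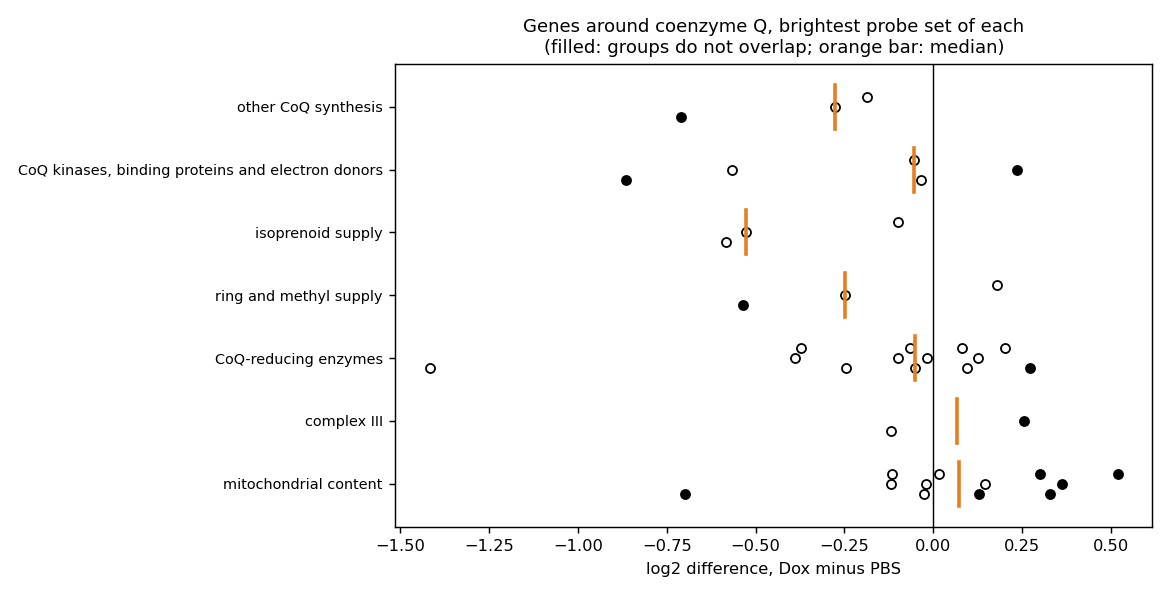
Log2 difference, Dox minus PBS, of each measured gene at its brightest probe set, by list, with the median of each list in orange and filled points where the groups do not overlap. The medians are -0.28 for the other coenzyme Q synthesis genes, -0.53 for isoprenoid supply and 0.07 for mitochondrial content, and COQ5 is not plotted.

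Markers of some other cells also differed in median between the groups, and none was called. All 6 measured fibroblast markers of 8 had a log2 difference below 0 (median -1.01), 4 of them at an unadjusted limma p no greater than 0.05. Of the 7 endothelial markers 5 were below 0 (median -0.56), 2 of them at that p. Over all probe sets 5.92% were lower at that p. The 12 measured cardiomyocyte markers had a median of 0.29 with 2 below 0. Above the Tag range, medians were 0.02 for 5 smooth muscle markers (2 below 0) and -0.03 for 3 adipocyte markers. They were -0.66 for 2 red cell markers (2 below 0) and 0.43 for 4 skeletal muscle markers (1 below 0). The skeletal muscle marker below 0 was MYL1, with a log2 difference of -2.19 (SE 0.55, limma adjusted p = 0.521) and groups apart. TNNI2, TNNC2 and CKM were above 0, the first 2 of them within the Tag range on 2 arrays. The 3 measured atrial markers had overlapping groups, with log2 differences of 2.14 for NPPA, 1.07 for SLN and 0.009 for MYL4. Their summed signals were 488 to 6101 in Dox-injected and 560 to 806 in PBS-injected piglets. NPPA read 296.7, 1860.3 and 5564.9 in Dox replicates 1 to 3, against 173.9, 370.7 and 552.1 in PBS replicates 1 to 3. SLN read 118.7 in Dox replicate 3 and 6.2 to 17.6 on the other arrays. The paper lists Nppa among genes raised in the failing ventricle from these same arrays, and gives its qRT-PCR values only as highly variable. Of 10 leukocyte markers 5 were measured above the Tag range, with a median of 0.60, and the summed signals of the list were 330 to 1192 in Dox-injected and 213 to 298 in PBS-injected piglets. The leukocyte markers with groups apart were S100A8 and S100A9, the calprotectin subunits of neutrophils, at ratios of 5.71 and 15.4, Dox over PBS (limma adjusted p = 0.521 for each), and S100A8 was within the Tag range on 2 arrays. The part of these markers in the coenzyme Q values was not tested.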

How the data were processed

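The authors hybridized 6 LV samples to Affymetrix arrays, 1 animal each, and deposited intensities, MAS5 signals from GCOS 1.4 at default settings. The 24123 probe sets include 124 controls, left out here. Signals of 0, found at 311 probe sets, were raised to 0.1, the lowest other value, before log2. The group difference was fitted with limma 3.58.1 in R 4.3.3 (lmFit, eBayes with intensity trend) across all 23999 probe sets, with Benjamini-Hochberg adjustment and no covariate, and scripts were tested on simulated data. The precision is limited by the number of arrays. Of the probe sets 10069 carry 1 symbol, 198 several and 13732 none. Members and lists were chosen with earlier results of these data known. All member probe sets are named, with up to 3 genes per list by unadjusted p and NDUFS7, whose groups did not overlap. The alternatives were other normalizations, an offset of 16, a filter on dim probe sets, no trend, array weights, the replicate block, the methods' t-test, the mean over probe sets and leaving out each array. RefSeq tables gave gene names and no sequences, so none are printed. Figures used matplotlib 3.10.9.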

Additional observations from a re-analysis of the deposited data

How the results depend on the processing

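With 3 animals a group, single arrays set the size of most differences. With 1 array left out, the count of probe sets called over the whole array ranged from 0 to 14, the COQ5 differences from -1.48 to -0.80 and from -1.74 to -1.14, and the median over the other synthesis genes from -0.42 (without Dox replicate 1) to -0.16 (without Dox replicate 3). That median, -0.28 with the brightest probe set of each gene, was -0.71 when each gene's probe sets were averaged and -0.045 with arrays shifted to a common median. This shift also turned the brightest COQ9 probe set to 0.045 and UQCR10 to 0.11, and leaving out Dox replicate 1 turned the dim COQ9 probe set to 0.076, where leaving out Dox replicate 3 gave -1.06. ACAT2 turned to 0.15 (quantile), 0.12 (cyclic loess) and 0.13 (common median), and ranged from -0.45 to 0.17 with single arrays left out. Of the other member probe sets and named list genes, those run under the alternatives kept their sign and stayed uncalled, each at its own probe set. The mean over probe sets was run for list medians only. FDX1 and MAT2B have probe sets of opposite sign, so their sign depends on the probe set taken. The filter on dim probe sets left the dim COQ9 probe set and S100A8 without a value. With the replicate block the count called was 0 and no difference changed its call. After centring each group, correlations between same-numbered arrays were -0.02, 0.12 and -0.08, against -0.14 to 0.10 between differently numbered arrays. With 3 arrays a group, these values cannot decide whether the animals were paired. The paper speaks of pairs of failing and non-failing samples and does not state how they were paired. MAS5 signals near the Tag range limit what can be read for the dim COQ6 and COQ9 probe sets.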

Other observations

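Among 6887 probe sets with 1 symbol above the Tag range on all 6 arrays, the log2 pattern most like that of COQ5 was that of MRPS12, a mitochondrial ribosomal protein gene, with a Pearson correlation of 0.9996 over 6 arrays. Its signals were low, at 11.6, 6.3 and 4.1 in Dox replicates 1 to 3, against 17.2, 19 and 17.4 in PBS replicates 1 to 3. UBE2V2 (0.998), a ubiquitin-conjugating enzyme variant gene, FAM69B (0.995), CORO1A (0.994), an actin-binding protein gene of leukocytes, and APCDD1 (0.993), a Wnt inhibitor gene, followed. After each group was centred on its own mean, MRPS12 was again first, and NKIRAS1, BIN2, HERPUD2 (higher in Dox, log2 difference 0.33) and EIF4E2 followed. These are the highest of many correlations over few arrays that share the group difference, and they are a description, with no test.

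Of the other members, the correlation with COQ5 over the 6 arrays was 0.938, 0.929 and 0.878 for the COQ6 probe sets, 0.867 and 0.726 for the bright COQ9 probe sets, -0.118 for the dim COQ9 probe set and 0.480 for PDSS1. The arrays share the group difference that chose COQ5. After each group was centred on its own mean, the values were 0.729, 0.954 and 0.926 for the same COQ6 probe sets, 0.899 and 0.834 for the bright COQ9 probe sets, -0.858 for the dim COQ9 probe set and -0.365 for PDSS1. The log2 SD of COQ5 was 0.70 and 0.61 over the Dox arrays, against 0.03 and 0.10 over the PBS arrays. These centred values therefore rest mostly on the 3 Dox arrays. How many other probe sets reach them was not counted, and they were not tested.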
